A study of Mus musculus with 16 samples.

Results

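The 4 AMPA receptor subunit genes (Gria1 to Gria4) and the 5 kainate receptor subunit genes (Grik1 to Grik5) were examined in the medial PFC of mice by single-nucleus RNA-Seq. They were chosen by name, and all 9 were found among the 19999 genes of the counts table. Levels were described over 20 marker-defined cell classes and compared between 4 groups of 4 male mice, with counts summed per mouse. The groups were WT controls (B6;129), alcohol-exposed WT mice, 3xTg-AD mice, and alcohol-exposed 3xTg-AD mice, all labeled as 22 weeks old. 3xTg-AD mice carry human transgenes for APP with the Swedish mutation and for tau with a familial mutation, which are driven by a Thy1 promoter cassette active in neurons, and a mutated presenilin 1 gene. Exposed mice received ethanol injections and intermittent alcohol vapor with pyrazole, an inhibitor of alcohol dehydrogenase. The unexposed mice of both genotypes received pyrazole as well and stayed in chambers with air, so that all 4 groups share the drug and the chambers. Per the paper, tissue was taken days after the last vapor exposure and after testing in a water maze. Levels of exposed mice are thus those after a history of alcohol and not under alcohol.

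AMPA and kainate receptors are tetrameric cation channels opened by glutamate. AMPA receptors carry most of the fast excitatory current of cortical synapses, and their subunit makeup sets the kinetics and the calcium permeability of that current. The GluA2 subunit, encoded by Gria2, makes the channel nearly impermeable to calcium, because its transcript is edited by the enzyme ADAR2 (gene Adarb1) at the codon of the pore known as the Q/R site, where glutamine is replaced by arginine. Kainate receptors act at synaptic and presynaptic sites of principal cells and interneurons. GluK1 to GluK3 (Grik1 to Grik3) can form channels by themselves, whereas GluK4 and GluK5 (Grik4 and Grik5) need 1 of them as a partner.

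The coding sequence around the Q/R site is shown for the 9 genes because it is the stretch at which members of both families are edited or stay unedited. Each line gives 30 bases of the GENCODE vM21 transcript (GRCm38), 5′ to 3′, with the codon of the site in capitals.
Gria1: ctgggggccttcatgCAGcaaggatgtgac
Gria2: ttgggtgcctttatgCAGcaaggatgcgat
Gria3: ttgggtgcttttatgCAGcaaggatgtgat
Gria4: ctgggtgcctttatgCAAcaaggatgtgac
Grik1: gttggagctctcatgCAGcaaggatcggag
Grik2: gttggagctctcatgCAGcaaggttctgag
Grik3: atgggctccctgatgCAGcaaggatctgaa
Grik4: gttggaggcttcatgCAGcaaggctccact
Grik5: gtgggtggcttcatgCAGcagggctcggag
The codon is CAA in Gria4 and CAG in the other genes, and both stand for glutamine. Over these 30 bases, 28 were identical between Gria2 and Gria3 and 28 between Grik1 and Grik2, against 18 between Gria4 and Grik4. Identity did not follow family throughout: Grik3 and Grik4 also shared 18, whereas Gria1 and Grik3 shared 23. The UMI counts do not read the edited base, so editing was not measured here.

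Libraries held 4955 to 9096 nuclei and 9622031 to 17544364 UMIs per mouse. Of the 114512 nuclei, 70148 (61.3%) fell into clusters that could be named from markers, and the classes are called after the type they resemble, such as L2/3 IT-like for intratelencephalic neurons of the upper layers. The 9 subunit genes were left out of the genes used for clustering. A total of 1694 cell barcodes occurred in more than 1 library, which touched 3400 nuclei. Gm42418, a ribosomal RNA-associated transcript, stood at 17914 CPM (counts of UMIs scaled to the total of the sum) or above in 2 WT controls (mice 26 and 27) and 1 3xTg-AD mouse (mouse 12), and at 4249 CPM or below in the other 13 mice. RNA of neurons was found in all classes: Slc17a7, the vesicular glutamate transporter of excitatory neurons, reached 718 CPM in the sum of glutamatergic nuclei and 467 CPM in Micro-PVM-like nuclei, a class named for microglia and macrophages, which should lack it. A cluster led by Mrc1, F13a1 and Stab1 (227 nuclei) stayed unnamed and was not part of this class.

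Gria1 encodes GluA1, the subunit whose insertion into synapses accompanies potentiation (chr11:57011387-57330244, + strand, Q/R codon at chr11:57243094-57243096 in exon 11). Its highest level was in Sst-like interneurons, with 668 CPM in the lowest mouse, 866 at the median and 1099 in the highest. Pvalb-like interneurons followed with 423, 512 and 648 CPM. The lowest Sst-like mouse was above the highest Pvalb-like mouse, and this was the only pair of neighboring classes in the order of levels, over all 9 genes and the 19 classes with at least 10 mice, whose ranges did not overlap. Among glutamatergic classes, Gria1 lay between 171 ± 37.8 CPM (SD, n = 16) in L5/6 NP-like and 364 ± 80.2 CPM (SD, n = 16) in L5 ET-like neurons, and neighboring classes in this span did not differ beyond their spread.

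Gria2 (chr3:80681450-80802835, − strand, codon at chr3:80706911-80706913 in exon 11) had 687980 UMIs over all nuclei. L5 ET-like neurons, which project to the brainstem and other subcortical targets, held the highest level at 4476 CPM in the lowest mouse, 5147 at the median and 5819 in the highest. L6 CT-like neurons followed with 4139, 4645 and 5253 CPM, so that these ranges overlapped. Levels were lower in Lamp5-like (2752 ± 282 CPM, SD, n = 16) and Sncg-like interneurons (2215 ± 327 CPM, SD, n = 16). Astro-like nuclei held 3238 ± 427 CPM (SD, n = 16) and OPC-like nuclei, the oligodendrocyte precursors, 3277 ± 463 CPM (SD, n = 16), whereas Oligo-like nuclei held 716 ± 106 CPM (SD, n = 16).

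Gria3 (chrX:41400854-41678601, + strand, codon at chrX:41610265-41610267 in exon 11) was also highest in L5 ET-like neurons, where the lowest mouse had 1497 CPM, the median was 1944 and the highest mouse had 2184. L2/3 IT-like neurons stood at 1445 ± 135 CPM (SD, n = 16) and L6 CT-like neurons at 1314 ± 106 CPM (SD, n = 16). Within the interneurons, Gria3 spread from 1110 ± 143 CPM (SD, n = 16) in Sst-like nuclei down to 255 ± 77.9 CPM (SD, n = 16) in Vip-like and 233 ± 110 CPM (SD, n = 16) in Sncg-like nuclei, which did not differ beyond their spread. These last levels were 21.1% and 19.3% of that in the glutamatergic sum. Slc17a7 stood higher, at 33.7% in Vip-like and 24.2% in Sncg-like nuclei. Gria3 itself was at 284 ± 53.6 CPM in Micro-PVM-like and 229 ± 60.3 CPM in Oligo-like nuclei (SD, n = 16 each). The Vip-like and Sncg-like levels thus cannot be told from RNA of other cells.

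Gria4 encodes GluA4, the subunit with fast kinetics that is known from fast-spiking interneurons (chr9:4417896-4796234, − strand, codon at chr9:4464137-4464139 in exon 12). Its highest level was in Pvalb-like nuclei, with 456 CPM in the lowest mouse, 529 at the median and 639 in the highest. L5/6 NP-like neurons (384 ± 58.7 CPM, SD, n = 16), Lamp5-like interneurons (373 ± 80.7 CPM, SD, n = 16) and L5 IT-like neurons (352 ± 57.4 CPM, SD, n = 16) came next and did not differ beyond their spread. In contrast to Gria2 and Gria3, Gria4 was low in L5 ET-like neurons, at 82.3 ± 12.1 CPM (SD, n = 16), which was below each of the other glutamatergic class means.

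**Figure D1:**
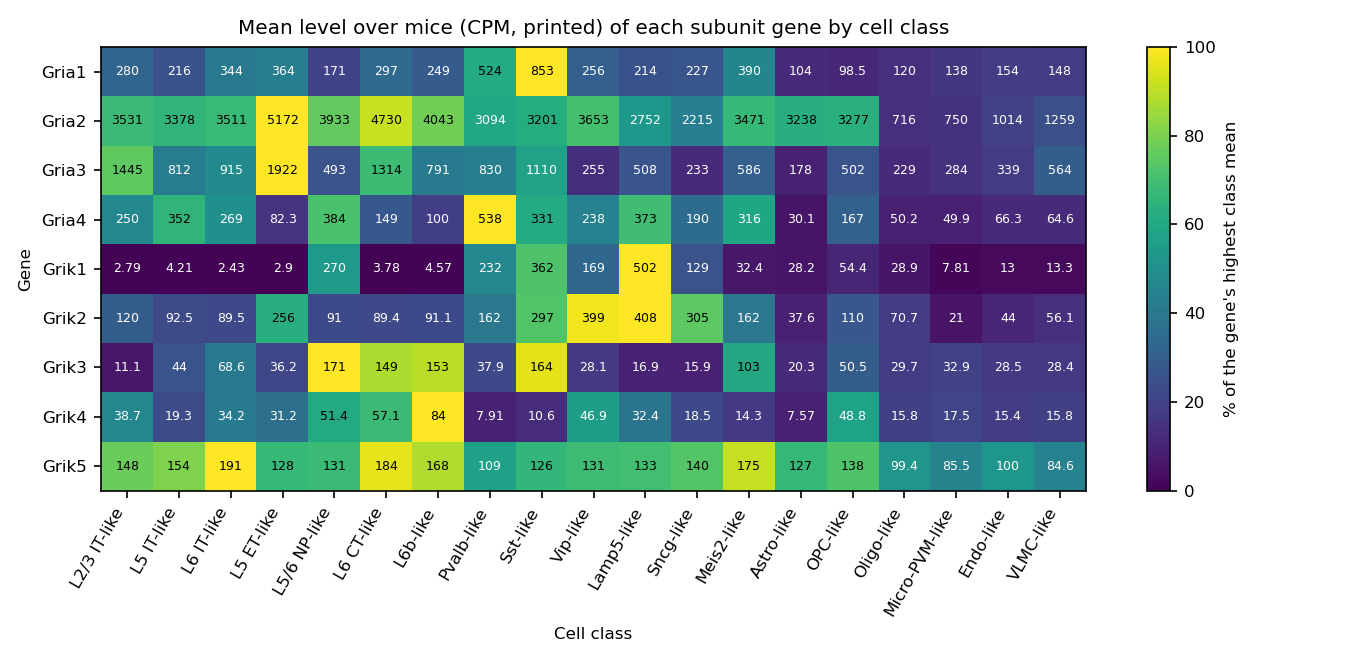
Mean level over mice of the 9 subunit genes (rows) in the 19 classes with at least 10 mice (columns). Printed values are CPM and color gives each class mean as a percent of the gene's highest class, which was Sst-like for Gria1, L5 ET-like for Gria2 and Gria3, Pvalb-like for Gria4 and Lamp5-like for Grik1 and Grik2.

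Grik1 separated cell classes most of the kainate subunit genes (chr16:87895900-88290265, − strand, codon at chr16:87940542-87940544 in exon 13). Lamp5-like interneurons had 335 CPM in the lowest mouse, 514 at the median and 645 in the highest. Sst-like nuclei had 362 ± 97.4 CPM (SD, n = 16), Pvalb-like 232 ± 56.1 CPM (SD, n = 16), Vip-like 169 ± 48.4 CPM (SD, n = 16) and Sncg-like 129 ± 40.03 CPM (SD, n = 16). Meis2-like nuclei, a further GABAergic class, had 32.4 ± 44.3 CPM (SD, n = 10). Of the glutamatergic classes, L5/6 NP-like neurons alone reached the range of these interneuron classes, at 193 CPM in the lowest mouse, 262 at the median and 380 in the highest. The other 6 glutamatergic classes lay between 2.43 ± 1.60 CPM (SD, n = 16) in L6 IT-like and 4.57 ± 7.62 CPM (SD, n = 14) in L6b-like nuclei, below the 7.81 ± 8.23 CPM (SD, n = 16) of Micro-PVM-like nuclei. A level this low cannot be told from RNA of other cells.

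Grik2 (chr10:49094833-49788766, − strand, codon at chr10:49244329-49244331 in exon 12) encodes GluK2, a main subunit of forebrain kainate receptors. It was highest in Lamp5-like (408 ± 56.1 CPM, SD, n = 16) and Vip-like interneurons (399 ± 80.9 CPM, SD, n = 16), which did not differ beyond their spread. L5 ET-like neurons held the highest level of the glutamatergic classes, at 256 ± 48.3 CPM (SD, n = 16), while the other glutamatergic classes lay between 89.4 ± 19.2 CPM (SD, n = 16) in L6 CT-like and 120 ± 21.9 CPM (SD, n = 16) in L2/3 IT-like neurons. The noncoding genes Gm26543 and Gm47018 overlap Grik2 on the same strand, so reads of these genes could be split among them.

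Grik3 (chr4:125490700-125714173, + strand, codon at chr4:125691207-125691209 in exon 12) had its highest levels in the deep classes L5/6 NP-like (mean 171 CPM, range 102 to 241, n = 16), L6b-like (153 ± 41.2 CPM, SD, n = 14) and L6 CT-like (149 ± 32.6 CPM, SD, n = 16) and in Sst-like interneurons (164 ± 34.8 CPM, SD, n = 16). These 4 classes did not differ beyond their spread. L2/3 IT-like neurons had 11.1 ± 4.90 CPM (SD, n = 16), below the 32.9 CPM of Micro-PVM-like nuclei. Grik4 (chr9:42518135-42944493, − strand, codon at chr9:42547623-42547625 in exon 14) had the fewest UMIs of the family, 6253 over all nuclei. Its highest mean was in L6b-like neurons (84.0 ± 52.0 CPM, SD, n = 14), where mice ranged from 21.6 to 232 CPM, followed by L6 CT-like neurons (57.1 ± 12.2 CPM, SD, n = 16). Pvalb-like nuclei were at 7.91 ± 5.36 CPM (SD, n = 16), below the 17.5 CPM of Micro-PVM-like nuclei. Grik5 (chr7:25009849-25072346, − strand, codon at chr7:25022497-25022499 in exon 15) varied least, by 2.26-fold between the highest class mean, in L6 IT-like neurons (191 ± 13.8 CPM, SD, n = 16), and the lowest, in VLMC-like nuclei (84.6 ± 68.3 CPM, SD, n = 13, 61 UMIs). Grik5 was at 99.4 ± 46.9 CPM in Oligo-like and 85.5 ± 23.0 CPM in Micro-PVM-like nuclei (SD, n = 16 each). Pvalb-like nuclei, at 109 ± 19.2 CPM (SD, n = 16), did not differ from these beyond their spread. The part of RNA from other cells in this small fold was not tested.

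The makeup of each family was described as the share of its UMIs that fell on each gene. These shares were not corrected for gene length and were compared only between classes. Gria2 took 91.1% ± 1.3 (SD, n = 16) of the AMPA subunit UMIs in Astro-like nuclei, 82.9% ± 2.7 (SD, n = 16) in Vip-like and 58.3% ± 3.5 (SD, n = 16) in Sst-like interneurons. Gria1 took 15.5% ± 1.9 (SD, n = 16) in Sst-like and 10.5% ± 1.2 (SD, n = 16) in Pvalb-like nuclei, against 4.99% ± 0.77 (SD, n = 16) in the glutamatergic sum. Gria3 took 26.2% ± 1.6 (SD, n = 16) in L2/3 IT-like and 5.84% ± 1.7 (SD, n = 16) in Vip-like nuclei, where its level was within the background given above. Among the kainate subunit UMIs, Grik1 took 36.3% ± 5.6 (SD, n = 16) in the GABAergic sum and 3.28% ± 0.70 (SD, n = 16) in the glutamatergic sum, whereas Grik5 took 16.9% ± 2.4 and 41.1% ± 3.8 (SD, n = 16 each). Grik2 took 56.0% ± 5.4 (SD, n = 16) in L5 ET-like neurons, and Grik3 took 30.7% ± 4.7 (SD, n = 16) in L6 CT-like neurons.

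**Figure D2:**
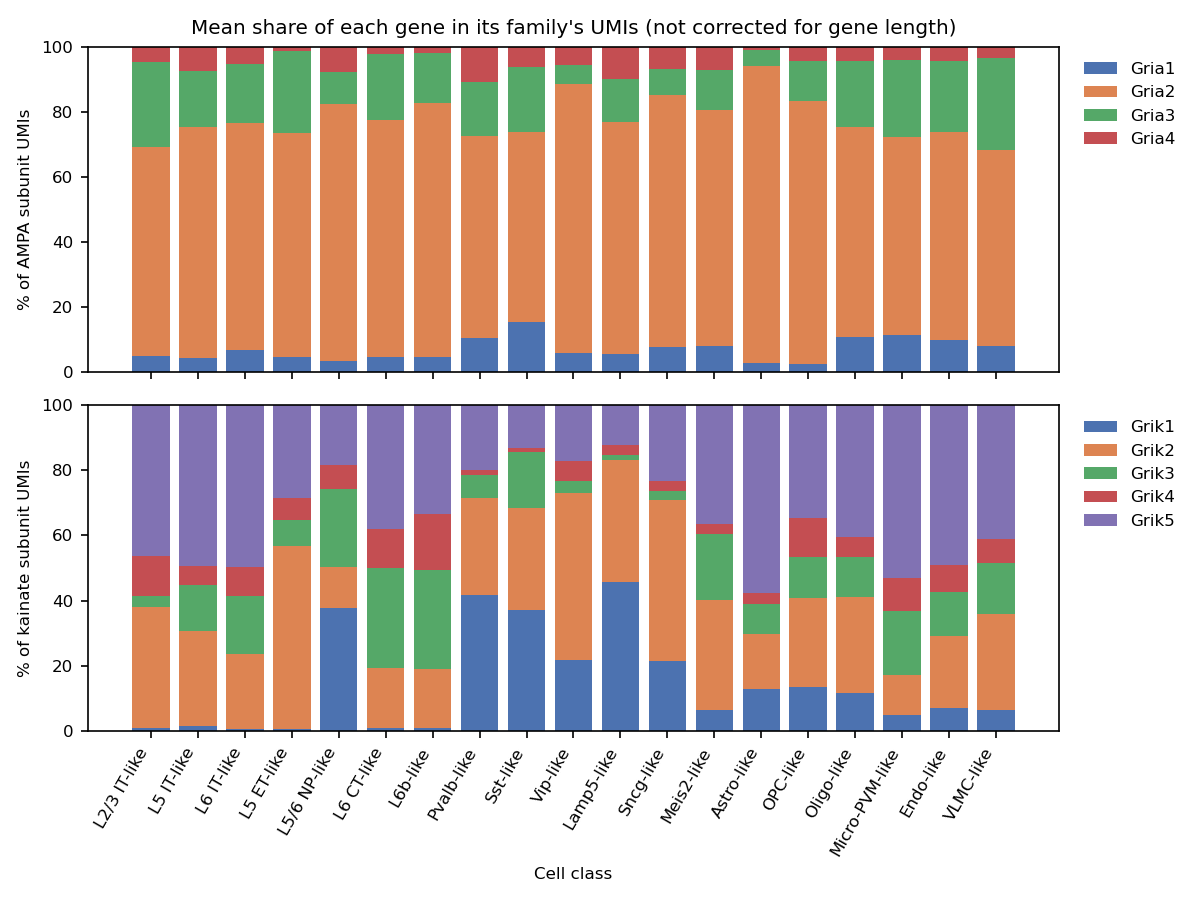
Mean percent of the AMPA subunit UMIs (upper panel) and kainate subunit UMIs (lower panel) on each gene by cell class, without correction for gene length. The Gria2 part of the AMPA bars runs from 58.3% in Sst-like to 91.1% in Astro-like nuclei. The Grik1 part is 21.3% to 45.8% in Pvalb-like, Sst-like, Vip-like, Lamp5-like and Sncg-like interneurons and 37.7% in L5/6 NP-like neurons. It is 6.32% in Meis2-like nuclei and at most 1.42% in the other glutamatergic classes.

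Levels in non-neuronal classes were read against genes that these cells should lack. In Micro-PVM-like nuclei, Slc17a7 stood at 65.0% of its level in the glutamatergic sum, while Gria2 stood at 19.4%, Gria3 at 23.6% and Gria4 at 20.1%. In Oligo-like nuclei, Slc17a7 stood at 56.9% and Gria2 at 18.5%. The AMPA subunit levels of these classes lay below that background and were not read as expression. In Astro-like nuclei Slc17a7 stood at 45.7% and Gria2 at 83.7%, and in OPC-like nuclei Slc17a7 stood at 51.1%, Gria2 at 84.7%, Gria4 at 67.4%, Grik2 at 89.1% and Grik4 at 140%. Snap25, a gene of the synaptic vesicle machinery of all neurons, stood at 75.4% in Astro-like, 89.2% in OPC-like, 104% in Oligo-like and 116% in Micro-PVM-like nuclei. The share of a neuronal gene thus differed from gene to gene within a class, and the level of each subunit gene was set beside its own level in Oligo-like and Micro-PVM-like nuclei, which held more Snap25. Gria2 had 2235 CPM in the lowest Astro-like mouse and 2665 CPM in the lowest OPC-like mouse, against 889 CPM in the highest Oligo-like and 1162 CPM in the highest Micro-PVM-like mouse. These ranges did not overlap, so the Gria2 level of Astro-like and OPC-like nuclei was above the one found in classes with more Snap25. Gria4 in OPC-like nuclei (167 ± 35.4 CPM, SD, n = 16) had a higher mean than in Oligo-like (50.2 ± 26.4 CPM) and Micro-PVM-like nuclei (49.9 ± 25.3 CPM, SD, n = 16 each), and the ranges overlapped at their edges. Grik4 in OPC-like nuclei (48.8 ± 22.2 CPM, SD, n = 16) likewise had a higher mean than in those classes (15.8 ± 9.22 and 17.5 ± 16.4 CPM, SD, n = 16 each), with ranges that overlapped. Grik2 in OPC-like nuclei, at 59.4 to 150 CPM, overlapped Oligo-like nuclei, at 27.6 to 144 CPM, over most of its range. For Gria3 in OPC-like nuclei the comparisons differed. It stood at 41.6% of the glutamatergic level, below Slc17a7. At 384 to 640 CPM it was above Oligo-like nuclei, at 108 to 324 CPM, and overlapped Micro-PVM-like nuclei, at 198 to 414 CPM, at the edges. Relative to the GABAergic sum, OPC-like nuclei held Gria4 and Grik2 at 42.2% each, beside Gad1 at 32.4% and Slc32a1 at 18.6%, which are genes of GABA synthesis and packaging. Astro-like nuclei showed Gria4 at 12.1% and Gria3 at 14.8% of the glutamatergic level, below Slc17a7.

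The genes whose profile over the 19 classes was most like that of a subunit gene, among 14086 genes with at least 10 CPM in a class, were named by Pearson's r of log2(CPM + 1). These r are descriptions over class means that share libraries and depth. The nearest were Lsmem1 (0.87) and Dgkg (0.87) for Gria1, Gm14391 (0.93) and Hectd2os (0.93) for Gria2, Gm10419 (0.87) and Ociad2 (0.86) for Gria3, and 4930471G03Rik (0.91) and 4732463B04Rik (0.90) for Gria4. For the kainate subunits they were Kcnip1 (0.92) and Gprin2 (0.91) for Grik1, Gm47018 (0.94) and 5330434G04Rik (0.91) for Grik2, Ftl1-ps1 (0.94) and Psmd7 (0.81) for Grik3, Amz2 (0.81) and Pdzrn4 (0.80) for Grik4, and Macrod2os1 (0.88) and Dot1l (0.87) for Grik5. Gm47018 overlaps Grik2 as given above.

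Group differences were tested in the 17 classes with at least 10 nuclei in 3 or more mice of every group. Of 153 pairs of a subunit gene and a class, 124 passed the filter on low counts. Gria1, Gria2, Gria3 and Grik5 were tested in all 17 classes, Gria4 and Grik2 in 15, Grik3 in 10, Grik1 in 9 and Grik4 in 7. A single pair passed an adjusted p threshold of 0.05 (edgeR quasi-likelihood test, Benjamini-Hochberg over all genes of a class) in any of the 8 contrasts: Gria4 was lower in Vip-like interneurons of alcohol-exposed 3xTg-AD mice than of WT controls. In that contrast 1 of 124 pairs was called, against 1.11% of all genes and classes tested, and 17 had an unadjusted p under 0.05, against 12.2% of all tested. Both shares, taken over the 9 genes together, are near the background. Of the 17 pairs, 9 were of Gria4, out of its 15 classes, so they were not spread evenly over the genes. The classes come from the same mice and are not independent. In Vip-like nuclei alone, 0.387% of the genes tested were called in this contrast.

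In these 17 classes, no subunit gene was called in the other contrasts by edgeR, or in any contrast by DESeq2. DESeq2 called 0.503% of all tests for genotype, 0.957% for alcohol and 0.179% between exposed genotypes. Its share in the other contrasts, with that of alcohol-exposed 3xTg-AD mice versus WT controls, was not set beside its counts. The DESeq2 counts of 0 were thus not read as a result about the subunit genes. For 3xTg-AD versus WT mice averaged over exposures, 10 of 124 pairs had an unadjusted p under 0.05, while 10.3% of all tests did and 1.02% were called. For alcohol versus air averaged over genotypes, the count was 11, against 12.7% of all tests with 0.745% called. For 3xTg-AD versus WT controls it was 7, against 6.31% with 0.197% called. For alcohol-exposed 3xTg-AD mice versus alcohol-exposed WT mice it was also 7, against 8.74% with 0.4% called. For alcohol-exposed WT mice versus WT controls it was 9, against 8.78% with 0.0356% called, and for alcohol-exposed 3xTg-AD mice versus 3xTg-AD mice it was 3, against 8.22% with 0.156% called. For the interaction of genotype and alcohol it was 3, against 4.29% with 0.00174% called. The median SE of a subunit's log2 fold change was 0.14 in the averaged contrasts and 0.19 in alcohol-exposed 3xTg-AD mice versus WT controls. Changes well above these sizes could still miss the threshold. Gria4 was not called at -0.57 ± 0.16 (SE) in Vip-like nuclei for alcohol averaged over genotypes. In Sst-like nuclei it was not called at -0.59 ± 0.18 (SE) in alcohol-exposed 3xTg-AD mice versus WT controls.

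Gria4 in Vip-like interneurons had 331, 349, 448 and 452 CPM (after TMM scaling) in WT controls and 173, 187, 220 and 248 CPM in alcohol-exposed 3xTg-AD mice. TMM-scaled values are per total of the genes that passed the filter on low counts. They are not on the scale of the CPM by class above, where the highest Vip-like mouse had 322 CPM. The 4 exposed 3xTg-AD mice were all below the 4 WT controls. Alcohol-exposed WT mice had 219, 246, 293 and 366 CPM, and 3xTg-AD mice had 243, 305, 368 and 430 CPM, and both groups overlapped the WT controls. The log2 fold change between alcohol-exposed 3xTg-AD mice and WT controls was -0.90 ± 0.23 (SE, n = 4 per group) with an adjusted p of 0.0398 (edgeR quasi-likelihood test). The call was lost with DESeq2 (-0.89, adjusted p of 0.216) and when WT control 26, 27 or 28, alcohol-exposed 3xTg-AD mouse 31, 33 or 34 or alcohol-exposed WT mouse 7 was left out, with log2 fold changes of -0.99 to -0.82 and adjusted p of 0.0332 to 0.188 over all 16 mice left out in turn. The value averaged over genotypes for alcohol versus air was -0.57 ± 0.16 (SE, n = 8 per side) with an adjusted p of 0.0609, which missed the threshold, while 0.58% of the genes tested in Vip-like nuclei were called in that contrast. It ran from -0.66 to -0.28 over the 9 alternatives other than single mice left out, with adjusted p of 0.0255 to 0.658 (edgeR or DESeq2).

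The Vip-like class joined 2 clusters whose shares differed between exposures. The smaller cluster, led by Vip, Tac2 and Crispld2, held 8.33% to 24.2% of the Vip-like nuclei of each unexposed mouse and 25.2% to 45.8% of each exposed mouse. The summed level of the 8 Vip markers ranged from 2781 to 4232 CPM in WT controls and from 4065 to 5570 CPM in alcohol-exposed 3xTg-AD mice, and none of these markers was at 0. Within the larger cluster alone, the Gria4 change was -0.87 on the log2 scale with an adjusted p of 0.113 (edgeR quasi-likelihood test), so the size was about as in the class but the call was lost. In CPM of all UMIs, without TMM scaling, Gria4 over all 4 mice stood in the larger cluster at 306 CPM in WT controls and at 176 CPM in alcohol-exposed 3xTg-AD mice. In the smaller cluster it stood at 253 CPM (17 UMIs) and 153 CPM (33 UMIs). These values cannot be set beside the TMM-scaled ones of the class. Panel markers of Pvalb-like interneurons, the class with the highest Gria4, summed to 191 to 288 CPM in Vip-like nuclei of WT controls and to 214 to 269 CPM in those of alcohol-exposed 3xTg-AD mice. Fewer cells of a subtype and less RNA per cell cannot be told apart in these sums.

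**Figure D3:**
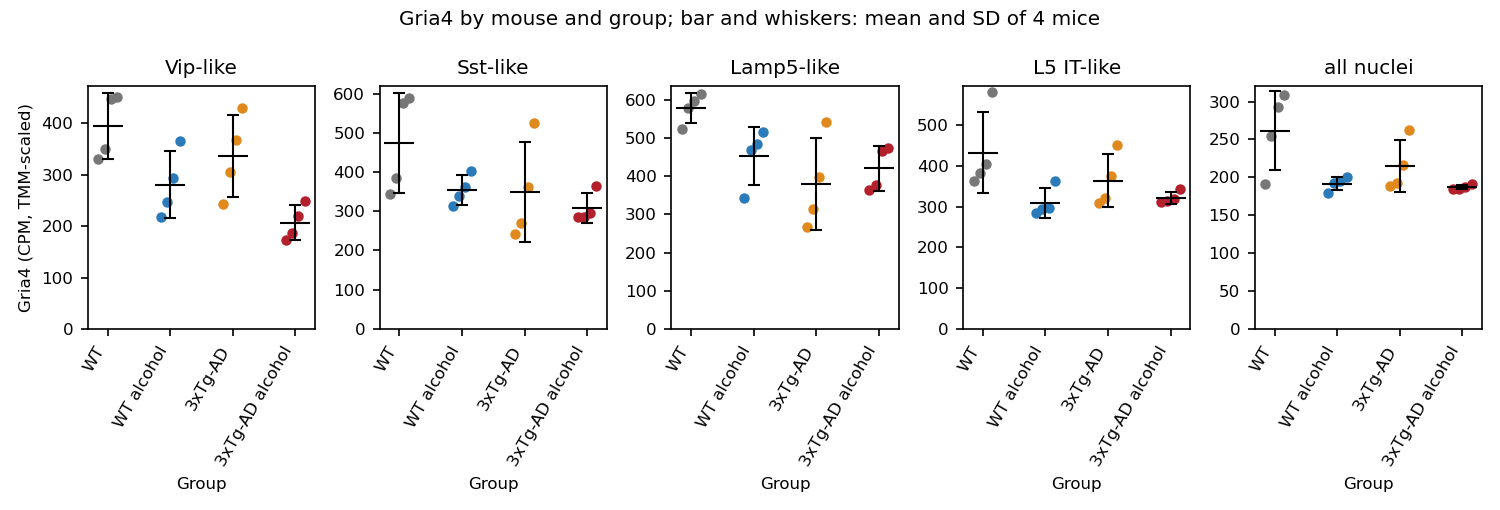
Gria4 level (CPM after TMM scaling) of each mouse by group in 4 classes and in all nuclei, with a bar and whiskers for the mean and SD of 4 mice. In Vip-like nuclei the points of alcohol-exposed 3xTg-AD mice end at 248 CPM and those of WT controls begin at 331 CPM, and the groups overlap in the Sst-like panel and over all nuclei.

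In the same contrast, Gria4 had a negative log2 fold change in all 15 classes tested, with a median of -0.42. The median over all genes and classes was 0.00. Gria4 was also negative in all 15 classes for 3xTg-AD mice versus WT controls (median -0.25). For alcohol-exposed WT mice versus WT controls it was negative in 13 of 15 (median -0.36). All of these contrasts share the 4 WT controls. Without WT controls, 13 of 15 classes were negative for exposed versus unexposed 3xTg-AD mice (median -0.14) and 10 of 15 between exposed genotypes (median -0.10). These classes come from the same mice and are not independent. Over all nuclei, Gria4 was also called in alcohol-exposed 3xTg-AD mice versus WT controls, at -0.48 ± 0.13 (SE, n = 4 per group) with an adjusted p of 0.0480 (edgeR quasi-likelihood test), where 4.06% of all genes were called. It stayed called in 2 of 16 fits with a mouse left out (-0.61 to -0.39, adjusted p of 0.00951 to 0.122). WT controls had 191, 255, 292 and 308 CPM and alcohol-exposed 3xTg-AD mice had 185, 185, 188 and 191 CPM after TMM scaling, so that the lowest WT control fell inside the range of the exposed 3xTg-AD mice. In the sum of glutamatergic nuclei the change was -0.37 ± 0.14 (SE, n = 4 per group) with an adjusted p of 0.128, and in the sum of GABAergic nuclei -0.45 ± 0.14 (SE, n = 4 per group) with an adjusted p of 0.127 (edgeR quasi-likelihood test). The GABAergic value was -0.38 without WT control 27, whose sum was mostly of Meis2-like nuclei.

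Gria4 levels were set beside those of the ribosomal RNA-associated transcripts, both in CPM without TMM scaling. Where Gm42418 was highest, WT controls 26 and 27 had 257 and 290 CPM of Gria4 over all nuclei and 3xTg-AD mouse 12 had 247 CPM, while the other 13 mice lay between 181 and 264 CPM. The summed level of 5 such transcripts in Vip-like nuclei was 6081 to 36555 CPM in WT controls and 3865 to 4987 CPM in alcohol-exposed 3xTg-AD mice. Leaving out these 3 mice kept mice 28 and 36 as the only WT controls. The Gria4 change in Vip-like nuclei was then -0.70 with an adjusted p of 0.412, and over all nuclei -0.25 with an adjusted p of 0.228 (edgeR quasi-likelihood test). With the share of these transcripts as a covariate, the values were -0.58 with an adjusted p of 0.628 in Vip-like nuclei and -0.13 with an adjusted p of 0.612 over all nuclei (edgeR quasi-likelihood test). The covariate left 0.0031 in the glutamatergic and -0.09 in the GABAergic sum. In Vip-like nuclei, WT controls and alcohol-exposed 3xTg-AD mice did not overlap in these transcripts, so the covariate and the group cannot be told apart. Which part of the difference goes with these transcripts was not tested.

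**Figure D4:**
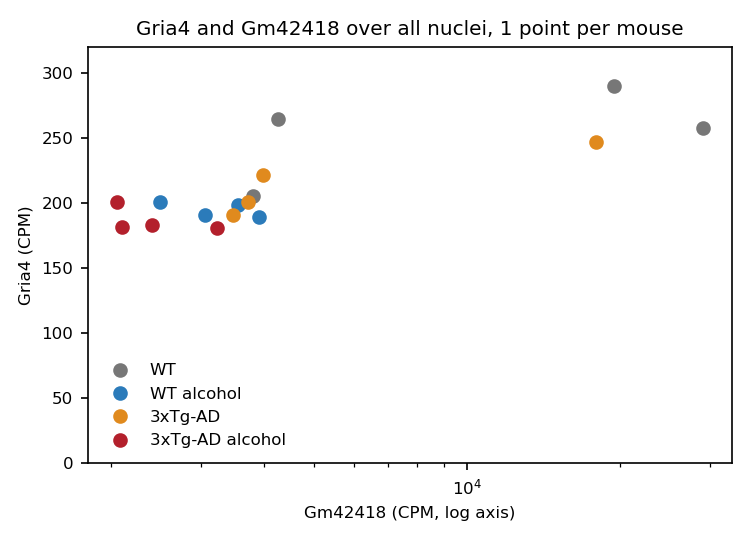
Gria4 (CPM, linear axis) against Gm42418 (CPM, log axis) over all nuclei, 1 point per mouse, colored by group. The 3 mice at 17914 CPM of Gm42418 or above have 247 to 290 CPM of Gria4, and the 4 alcohol-exposed 3xTg-AD mice have 181 to 201 CPM.

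The next smallest unadjusted p-values belonged to pairs that did not pass the test. In Sst-like interneurons, Gria4 had 345, 385, 577 and 588 CPM in WT controls and 286, 286, 296 and 364 CPM in alcohol-exposed 3xTg-AD mice, which overlapped, with a log2 fold change of -0.59 ± 0.18 (SE, n = 4 per group) and an adjusted p of 0.117 (edgeR quasi-likelihood test). With the ribosomal RNA-associated share as a covariate this value was -0.0048, and without the 3 mice it was -0.24. In L5 IT-like neurons, Gria4 had 363, 382, 405 and 580 CPM in WT controls and 284, 293, 296 and 362 CPM in alcohol-exposed WT mice, with a change of -0.49 ± 0.14 (SE, n = 4 per group) and an adjusted p of 0.231 (edgeR quasi-likelihood test). All 4 exposed mice were below the controls by a narrow margin. The change was -0.32 without WT control 26, -0.18 with the covariate and -0.27 without the 3 mice. In Lamp5-like interneurons, Gria4 had 524, 580, 597 and 616 CPM in WT controls and 268, 314, 397 and 542 CPM in 3xTg-AD mice, with a change of -0.64 ± 0.21 (SE, n = 4 per group) and an adjusted p of 0.477 (edgeR quasi-likelihood test). The highest of these 3xTg-AD mice was mouse 12. The change was -0.34 with classes assigned from marker UMIs.

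Grik3 in L5/6 NP-like neurons, the glutamatergic class with its highest level, gave the third smallest p. WT controls had 134, 166, 172 and 201 CPM and alcohol-exposed WT mice 188, 221, 241 and 256 CPM. 3xTg-AD mice had 117, 150, 152 and 164 CPM, and alcohol-exposed 3xTg-AD mice had 171, 198, 219 and 248 CPM. Within 3xTg-AD mice the exposed animals were all above the unexposed ones, and within WT mice the ranges overlapped. The change with alcohol averaged over genotypes was 0.46 ± 0.14 (SE, n = 8 per side) with an adjusted p of 0.143 (edgeR quasi-likelihood test), and 0.29 with the ribosomal RNA-associated share as a covariate. Gria1 in L2/3 IT-like neurons had a mean of 254 ± 17.6 CPM in WT controls, 252 ± 25.4 CPM in alcohol-exposed WT mice, 311 ± 65.1 CPM in 3xTg-AD mice and 306 ± 26.3 CPM in alcohol-exposed 3xTg-AD mice (SD, n = 4 each). Its genotype change averaged over exposures was 0.29 ± 0.09 (SE, n = 8 per side) with an adjusted p of 0.112 (edgeR quasi-likelihood test). With the ribosomal RNA-associated share as a covariate, Gria1 in this class was called at 0.33 with an adjusted p of 0.0401 (edgeR), while 1.23% of all genes and classes, and 2.25% of the genes in L2/3 IT-like neurons, were called under that fit. Gria1 was named here after its values were seen.

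The GABAergic sum of WT control 27 stood apart in its makeup: 1092 of its 1392 nuclei were Meis2-like, against 3 to 109 such nuclei in the other 15 mice. Grik1 was at 28.9 CPM in these nuclei and at 104 CPM in the GABAergic sum of that mouse, while the other 15 mice had 173 to 382 CPM in that sum. In the sums of glutamatergic, GABAergic and all nuclei, log2 fold changes of the 9 genes for genotype averaged over exposures ran from -0.24 (Gria4, GABAergic sum, -0.20 without WT control 27) to 0.22 (Gria1, glutamatergic sum, adjusted p of 0.208 with edgeR). For alcohol averaged over genotypes they ran from -0.32 (Gria4, all nuclei, adjusted p of 0.0654 with edgeR) to 0.27 (Grik1, GABAergic sum, adjusted p of 0.475 with edgeR). The latter was 0.15 without WT control 27 and 0.43 without WT control 36. For alcohol-exposed 3xTg-AD mice versus WT controls they ran from the -0.48 of Gria4 over all nuclei to 0.38 for Grik1 in the GABAergic sum (adjusted p of 0.491 with edgeR). This Grik1 value was 0.14 without WT control 27 (adjusted p of 0.760) and 0.70 without WT control 36 (adjusted p of 0.0506), and it was -0.06 once WT controls 26 and 27 and 3xTg-AD mouse 12 were left out (edgeR). Gria2 in the glutamatergic sum stood at -0.06 ± 0.08 for genotype, 0.01 ± 0.08 for alcohol and -0.06 ± 0.12 for the combination (SE). Gria3 in that sum stood at 0.04 ± 0.07, -0.01 ± 0.07 and 0.04 ± 0.09 (SE). These values were within 1 SE of 0, and all but the genotype value of Gria3 changed sign in at least 1 alternative. Of these 27 values per contrast, Gria4 over all nuclei in the last contrast was the only 1 called by edgeR. Over all nuclei, 3.28% of all genes were called for genotype, 3.3% for alcohol and 4.06% in the last contrast. The share of all genes was not set beside the counts in the glutamatergic and GABAergic sums. The lack of calls in these sums was thus not read as a result about the subunit genes. DESeq2 called Gria4 over all nuclei in alcohol-exposed 3xTg-AD mice versus WT controls (adjusted p of 0.0139, with 6.39% of all genes called), for alcohol averaged over genotypes (-0.33, adjusted p of 0.0166, with 7.3% called) and for alcohol-exposed WT mice versus WT controls (-0.46, adjusted p of 0.0472, with 1.96% called). With the ribosomal RNA-associated share as a covariate, the value for alcohol averaged over genotypes was -0.08 (edgeR).

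**Figure D5:**
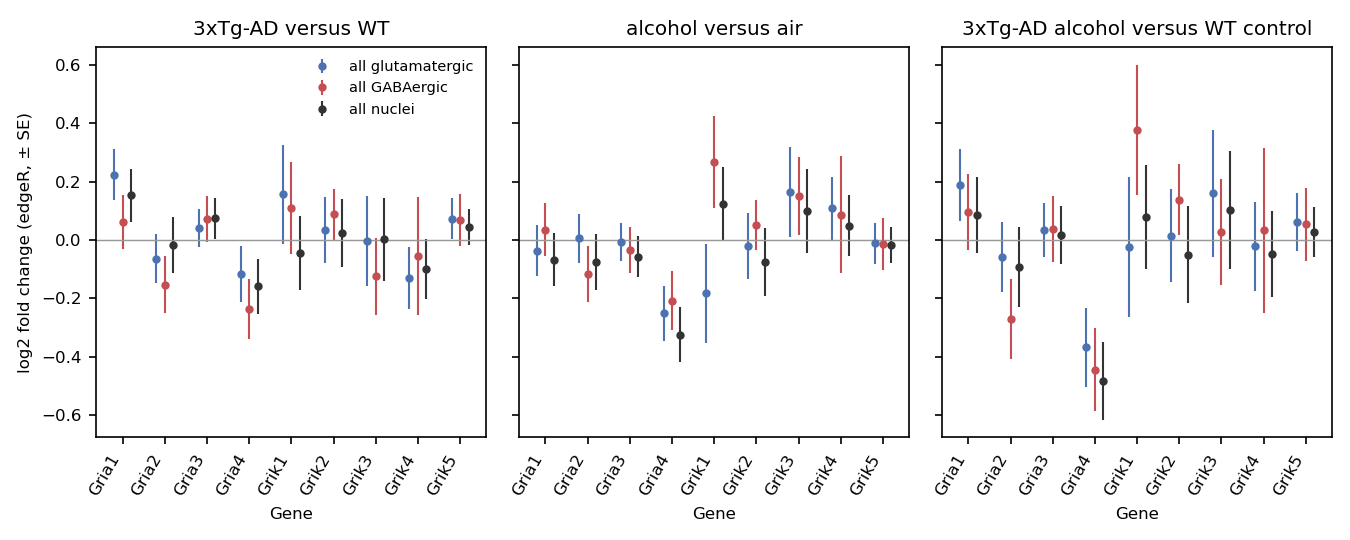
Log2 fold change with its SE (edgeR) of the 9 genes in the sums of glutamatergic, GABAergic and all nuclei for genotype, for alcohol and for alcohol-exposed 3xTg-AD mice versus WT controls. The Grik1 value of 0.38 in the GABAergic sum was 0.14 without WT control 27 and 0.70 without WT control 36. Gria4 is the lowest point of each sum in the third panel, from -0.37 to -0.48, and the other genes stay between -0.27 and 0.38.

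Partners of the receptors were taken from a list of 47 genes, of which 44 could be tested in at least 1 class. Their levels differed between classes as well. Cacng4, an auxiliary subunit of the TARP family, had 246 ± 59.5 CPM (SD, n = 16) in OPC-like nuclei and 41.3 ± 23.5 CPM (SD, n = 16) in the next class. Cacng2, which encodes stargazin, was highest in Pvalb-like nuclei (173 ± 16.8 CPM, SD, n = 16) and Cacng3 in L2/3 IT-like neurons (160 ± 18.9 CPM, SD, n = 16). The kainate receptor auxiliary genes differed from each other: Neto1 was highest in Sncg-like (375 ± 57.5 CPM, SD, n = 16) and Sst-like nuclei (354 ± 54.4 CPM, SD, n = 16) and Neto2 in L5/6 NP-like neurons (181 ± 34.1 CPM, SD, n = 16), where Neto1 was at 41.2 ± 16.0 CPM (SD, n = 16). Adarb1, the editing enzyme of the Q/R site, ranged from 177 ± 40.4 CPM (SD, n = 16) in L5/6 NP-like to 39.0 ± 16.8 CPM (SD, n = 16) in Oligo-like nuclei.

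Of 546 pairs of a partner gene and a class, 3 were called for genotype averaged over exposures, 1 higher and 2 lower. This was 0.549% of the pairs, against 1.02% of all genes and classes. Olfm3, an olfactomedin of AMPA receptor complexes, was lower in L6 CT-like neurons of 3xTg-AD mice, with means of 32.6 ± 12.05 CPM in WT controls, 47.6 ± 12.2 CPM in alcohol-exposed WT mice, 21.4 ± 9.08 CPM in 3xTg-AD mice and 20.6 ± 7.85 CPM in alcohol-exposed 3xTg-AD mice (SD, n = 4 each; log2 fold change -0.91 ± 0.20, adjusted p of 0.00827, edgeR quasi-likelihood test). Frrs1l, which takes part in AMPA receptor assembly, was lower in L2/3 IT-like neurons (-0.39 ± 0.10, adjusted p of 0.0328, edgeR), and Grip1, a scaffold that binds GluA2 and GluA3, was higher in L6 CT-like neurons (0.51 ± 0.13, adjusted p of 0.0449, edgeR). The Olfm3 call held in 15 of 16 fits with a mouse left out, all but that without WT control 36, and in all 9 other alternatives. The Frrs1l call held in 8 of the 16 fits and 6 of the 9 alternatives, and was lost without WT control 26 or 28, alcohol-exposed WT mouse 17, 3xTg-AD mouse 12 or 13, or alcohol-exposed 3xTg-AD mouse 4, 31 or 33. The Grip1 call held in 5 of the 16 fits, which were those without WT control 27 or 36, 3xTg-AD mouse 14 or 21, or alcohol-exposed 3xTg-AD mouse 4, and in 5 of the 9 alternatives. Between exposed genotypes, 1 pair was called (0.183%, against 0.4% of all tests), again Olfm3 in L6 CT-like neurons (-1.19 ± 0.27, adjusted p of 0.0218, edgeR). It held in 11 of 16 fits with a mouse left out and 7 of 9 other alternatives, with adjusted p up to 0.137, and was lost without alcohol-exposed WT mouse 6 or 7 or alcohol-exposed 3xTg-AD mouse 4, 31 or 34, with classes from marker UMIs and with DESeq2. Versus WT controls, 1 pair was called in alcohol-exposed 3xTg-AD mice (0.183%, against 1.11% of all tests), Cnih2 in Astro-like nuclei (0.81 ± 0.20, adjusted p of 0.0266, edgeR), where levels were 49.9 ± 2.97 and 86.7 ± 24.0 CPM (SD, n = 4 each). This call held in 11 of 16 fits with a mouse left out, with adjusted p up to 0.199 (edgeR). Losses came without each of the 4 WT controls and without alcohol-exposed 3xTg-AD mouse 33. The call held in 4 of 9 other alternatives, with adjusted p up to 0.183 (edgeR). It was lost with DESeq2, classes from marker UMIs, the largest cluster alone, the covariate, and without the 3 mice. The log2 fold change stayed between 0.60 and 0.84 over the 9 other alternatives. Cnih2, an auxiliary subunit of the cornichon family, averaged 60.4 CPM over all mice in Astro-like, 72.8 in Oligo-like and 77.6 in Micro-PVM-like nuclei, against 45.1 CPM in the glutamatergic sum, so its level in Astro-like nuclei was not above that of the other non-neuronal classes. A smaller Astro-like cluster, led by Myoc, Gfap and Aqp4, held 7.15% of the class in WT controls and 14.6% in alcohol-exposed 3xTg-AD mice. It held 10.9% in alcohol-exposed WT mice and 8.75% in 3xTg-AD mice. The parts of RNA from other cells and of these cluster shares in the Cnih2 change were not tested. In the other 5 contrasts no partner gene was called by edgeR, while between 28 (interaction) and 54 (alcohol averaged over genotypes) pairs had an unadjusted p under 0.05, which was 5.13% of the pairs against 4.29% of all tests, and 9.89% against 12.7%. DESeq2 called 0.503% of all tests for genotype, 0.179% between exposed genotypes and 0.957% for alcohol. It called Frrs1l in L2/3 IT-like neurons and Olfm3 in L6 CT-like neurons for genotype as well, but neither Grip1 there nor Cnih2 in Astro-like nuclei nor Olfm3 between exposed genotypes. It also called Nsf, an ATPase of vesicle fusion that binds GluA2, in Astro-like nuclei for genotype (-0.36, adjusted p of 0.0143, DESeq2) and in Astro-like and L6 CT-like nuclei between exposed genotypes (-0.49 and -0.46, adjusted p of 0.0232 and 0.0179, DESeq2), and Epb41l1, a cytoskeletal partner of GluA1, in L2/3 IT-like neurons for alcohol (-0.28, adjusted p of 0.0156, DESeq2). Nsf averaged 287 CPM in Astro-like, 360 in Oligo-like and 418 in Micro-PVM-like nuclei and 252 CPM in the glutamatergic sum, so for Nsf as well the level in Astro-like nuclei was not above that of these classes. Epb41l1 and Nsf were named after their values were seen. The median log2 fold change of the 546 pairs lay between -0.05 and 0.01 in all 8 contrasts.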

How the data were processed

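Nuclei of the medial PFC of 16 male mice were profiled with 10x Genomics chemistry. Per the submitters' processing notes and the methods, the authors aligned the reads to mm10 with Cell Ranger 6.1.1, based on STAR, and deposited raw UMI counts per gene and nucleus in 1 table, without normalization. Whether intronic reads were counted and the limits of the filter on nuclei are not given in the sources used here. Every column of the table belonged to a listed sample.

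Clustering used analytic Pearson residuals (2000 variable genes, 30 principal components, 20 neighbors, Leiden at a resolution of 1.5, scanpy 1.11.5). The 9 subunit genes, their partner lists and mitochondrial genes were left out. Glutamatergic nuclei were clustered again with residuals computed within each mouse, and GABAergic nuclei with residuals over all mice. Clusters of at least 50 nuclei were named from markers, and these rebuilt names can differ from those of the study. Scrublet marked 48 nuclei (0.0419%) by its own threshold and thus did not work as a caller, and no nucleus was removed.

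Counts were summed per mouse and class (at least 10 nuclei) and fitted with edgeR 4.0.16 (TMM, filterByExpr, robust quasi-likelihood) in R 4.3.3, with 4 group means and 8 contrasts. Benjamini-Hochberg adjustment ran over the genes of each class and contrast, with calls at 0.05 or below. The fit was tested on simulated data. Levels by class or cluster, marker sums, values set beside Gm42418 and Grik1 per mouse in the GABAergic sum are CPM of the summed counts. Other values by group or mouse are scaled by TMM per total of the genes that passed the filter, so the scales differ. Classes were ordered by their mean, without a test.

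Subunit pairs named with full statistics were those called, filled up to 6 by the smallest unadjusted p. The 9 genes were also compared in 3 sums, and called partner genes were named, up to 3 per contrast. For each subunit, the 2 genes of highest Pearson's r over classes were named. Members and lists were chosen with earlier results of these data known. Alternatives used DESeq2 1.42.0, RLE size factors, no filter, other nuclei or class names, a covariate, and mice left out.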

Additional observations from a re-analysis of the deposited data

Results flagged for a closer look

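In 24 groups of 4 mice behind the values given per mouse, 2 held a mouse set apart from the others by more than Dixon's 95% critical value for 4 samples. Chance flags about 1 in 20 such groups. In Sst-like interneurons of alcohol-exposed 3xTg-AD mice, the highest mouse (mouse 33) had 364 CPM of Gria4, and the gap to the next was 0.865 of the range of the group. In L5 IT-like neurons of alcohol-exposed WT mice, the highest mouse (mouse 17) had 362 CPM of Gria4, with a gap of 0.850 of the range. No subunit gene was called for the interaction of genotype and alcohol by edgeR, which called 0.00174% of all tests. None was called by DESeq2, whose share of all tests was not set beside this count. In edgeR, 3 of 124 pairs had an unadjusted p under 0.05, against 4.29% of all tests.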

How the results depend on the processing

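No paired analysis was possible because mice carry no number shared between groups. For alcohol-exposed 3xTg-AD mice versus WT controls, the count of 1 called pair (Gria4 in Vip-like nuclei) fell to 0 with DESeq2, without the filter on low counts, with classes from marker UMIs, with the ribosomal RNA-associated share as a covariate, without the 3 mice with the most Gm42418, and with the largest cluster of each class alone, an alternative chosen after seeing the data. It stayed at 1 with RLE size factors, with stricter nuclei and without the nuclei of highest doublet score. Leaving out single mice gave 0 to 2 pairs: 0 without WT controls 26, 27 or 28, WT alcohol-exposed mouse 7, or 3xTg-AD alcohol-exposed mice 31, 33 or 34, and 2 without WT control 36. For alcohol averaged over genotypes, the count of 0 rose to 1 (Gria4 in Vip-like nuclei) without the nuclei of highest doublet score, and leaving out mice gave 0 to 1, with 1 without WT control 36, WT alcohol-exposed mouse 6 or 3xTg-AD mouse 14. For genotype averaged over exposures, it rose to 1 (Gria1 in L2/3 IT-like neurons) with the covariate and was 0 with each mouse left out. The counts of the other 5 contrasts were 0 in all alternatives run. The Gria4 change in Vip-like nuclei versus WT controls ran from -0.99 to -0.82 over mice left out (adjusted p of 0.0332 to 0.188, edgeR) and from -0.98 to -0.58 over the other alternatives (adjusted p of 0.0222 to 0.628). The values named within classes kept their direction in all alternatives run, but some in sums did not (combination: alcohol-exposed 3xTg-AD mice versus WT controls). The covariate gave 0.0031 for Gria4 in the glutamatergic sum versus WT controls, 0.0101 and 0.194 for Gria2 there (genotype and combination) and 0.0189 for Gria3 (alcohol). Leaving out the 3 mice gave -0.0582 for Grik1 in the GABAergic sum, 0.0862 for Gria2 (combination) and 0.0207 for Gria3 (alcohol). Classes from marker UMIs gave -0.00041 for Gria2 (alcohol) and -0.0035 for Gria3 (combination). Over mice left out, Gria2 ran from -0.0326 to 0.0467 (alcohol) and from -0.131 to 0.0220 (combination), and Gria3 from -0.0344 to 0.0164 (alcohol) and from -0.0046 to 0.0650 (combination). Grik1 in the GABAergic sum ran from 0.14 to 0.70 (combination), lowest without WT control 27. In the alternatives with a called subunit pair, the share of all genes and classes called was 0.806% to 1.35% for the combination with a mouse left out and 1.11% to 1.12% otherwise, 0.767% to 0.99% and 0.739% for alcohol, and 1.23% for genotype. The share of all genes called was not set beside the counts of 0, so a loss of this pair alone cannot be told from a general loss of calls. Why calls were lost was not tested. A Vip-like sum held 83787 to 198029 UMIs per mouse, and the part of this depth in the precision was not tested.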
